A study of Sus scrofa with 2 samples.

Results

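The genes described here are 28 components of GDNF, FGF and RAS-MAPK signalling, chosen by name from 16509 protein-coding genes with a symbol, and the question asked of each was whether ZBTB16 was found at its promoter in pig spermatogonia. ZBTB16 (PLZF) is a transcription factor with zinc fingers that marks undifferentiated spermatogonia. Its binding was profiled by CUT&Tag, in which an antibody brings a transposase to a chromatin protein and the released fragments are sequenced. The data were 2 peak lists, replicate 1 and replicate 2, from a single group of wild-type (WT) immature spermatogonia of pig testis, with 100000 cells per library. The labels do not say whether the libraries came from separate animals or cultures, and an IgG control was not analysed here.

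GDNF binds the co-receptor GFRA1, which presents it to the receptor tyrosine kinase RET or to the adhesion molecule NCAM1. FGFs bind the FGF receptors, which recruit the docking protein FRS2. Both routes reach SHC1, GRB2 and SOS1, which load RAS with GTP, and then the RAF-MEK-ERK cascade, while SRC-family kinases and PI3K-AKT form parallel arms and Sprouty proteins and DUSP6 restrain the signal. In rodents this signalling sustains the self-renewal of spermatogonial stem cells.

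The lists held 10273 and 7301 peaks, of which 60.8% and 64.0% were in the authors' promoter class (the transcription start site, TSS, to about 3 kb upstream). Each peak carries the authors' fold enrichment over a background whose source was not named. The number of fragments at the summit of each peak could be worked out from that fold and the p-value. A peak list gives no RNA level, so the cell type label could not be checked against expression. Of 7 marker genes of undifferentiated spermatogonia only ETV5 had a promoter peak in both lists. None of 3 Sertoli, 3 Leydig and 2 peritubular cell markers had a promoter peak in both. The share of all protein-coding genes was 20.8%, so these small counts were no check of cell type. All positions are on Sscrofa11.1.

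A promoter peak was found in both libraries at 3 of the 28 genes (10.7%), against 20.8% of all protein-coding genes. The 3 were YES1, a SRC-family kinase, MAP2K1, which encodes the ERK-activating kinase MEK1, and FRS2, the docking protein of FGF receptors. A gene with a promoter peak in both lists is called bound below. No receptor, RAS gene, PI3K or AKT gene or feedback inhibitor of the 28 was bound. A promoter peak in 1 library only was found at 7 genes (25.0%, against 16.1% of all genes): FGFR1, FGFR3, NRAS, PIK3R1, MAP2K2, SPRY2 and DUSP6. By library, 8 genes had a promoter peak in replicate 1 (28.6%, against 32.8% of all genes) and 5 in replicate 2 (17.9%, against 24.9%). Together this gave 10 of 28 with a promoter peak in at least 1 library (35.7%), a share near that of all genes (36.9%).

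Any assigned peak, at the promoter or elsewhere, was found at 18 of the 28 genes (64.3%, against 50.7% of all genes). Of these, 8 genes (28.6%, against 13.8% of all genes) had assigned peaks but none at the promoter, namely GFRA1, RET, NCAM1, FGFR2, GRB2, GAB1, SOS1 and LYN. The other 10 had no assigned peak (35.7%, against 49.3% of all genes). These were SHC1, HRAS, SRC, FYN, PIK3CA, AKT1, AKT2, BRAF, MAPK3 and SPRY4. Members were chosen by name, with earlier results of these data known, so the shares are set beside the background without a test.

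**Figure D1:**
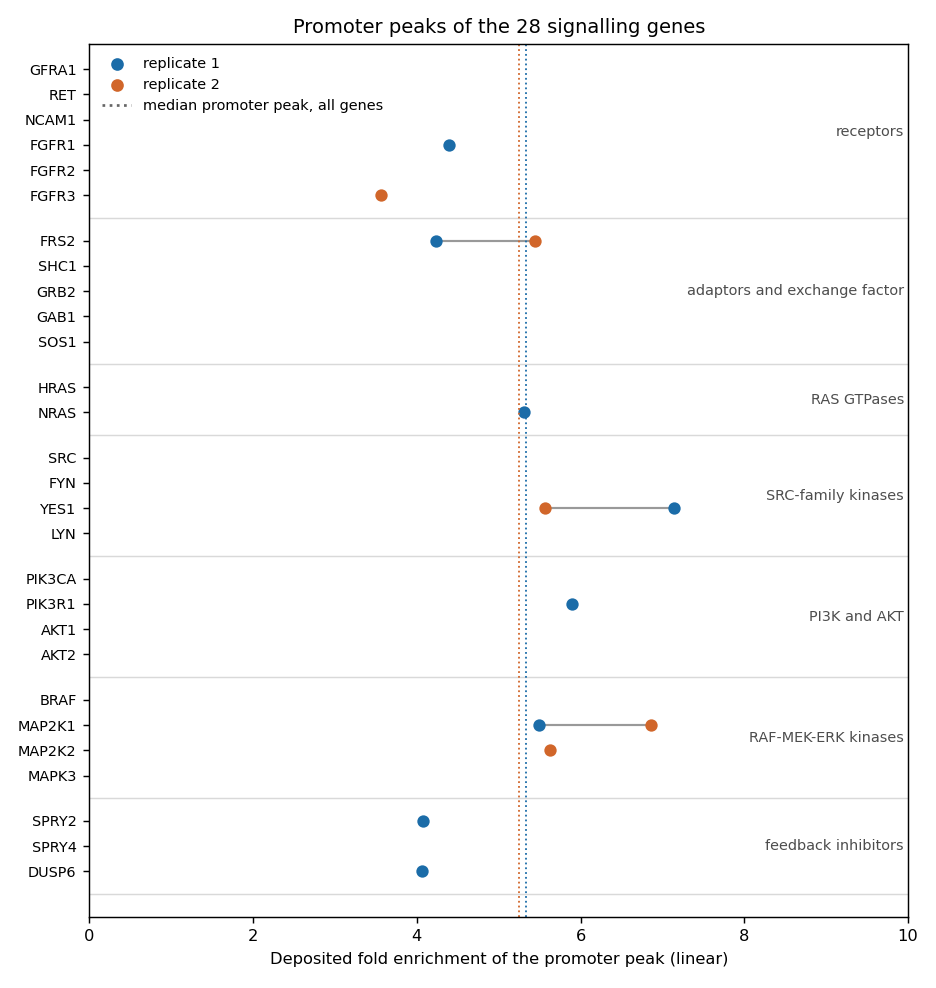
Fold enrichment (linear, horizontal axis) of the promoter peak of each of the 28 genes, grouped by role. Blue points are replicate 1, orange points replicate 2, grey lines join a gene's values, and dotted lines mark the median promoter peak of each library (5.33 and 5.25). A row with no point has no promoter peak, and only FRS2, YES1 and MAP2K1 have a point from both libraries.

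Among SRC-family kinases, which act in GDNF signalling beside RET, YES1 was the bound member. Its promoter peak had 7.14-fold enrichment in replicate 1 (chromosome 6, 105505500 to 105506127), from 28 summit fragments (exact 95% Poisson interval 18.6 to 40.5). In replicate 2 it had 5.57-fold enrichment (105505405 to 105506100), from 19 fragments (11.4 to 29.7). Both peaks spanned the TSS, with summits 179 and 155 bp upstream of it, and both folds were above the median promoter peak of their library. The intervals of the fragments overlapped. The counts were not scaled for library size, and a difference between the libraries was not tested. YES1 also had a distal peak in replicate 1 alone, 22.6 kb upstream (6.11-fold, 17 fragments).

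LYN, another kinase of this family, had an intronic peak in replicate 2 only (4.02-fold, 8 fragments, 11855 bp from the TSS of the transcript named in the list). SRC and FYN had no assigned peak, and no peak of another gene lay within 3 kb of either gene. With LCK and FGR added, 1 of 6 SRC-family genes examined was bound, against 20.8% of all genes.

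MAP2K1 was bound among the RAF-MEK-ERK kinases, the cascade that carries the RAS signal to ERK. Its peak had 5.49-fold enrichment in replicate 1 (chromosome 1, 164381558 to 164382396; 23 fragments, interval 14.6 to 34.5) and 6.86-fold in replicate 2 (164381600 to 164382086; 20 fragments, 12.2 to 30.9). By fold, replicate 2 was thus the higher library here and replicate 1 at YES1, while replicate 1 had more summit fragments at both genes. The intervals of the fragments overlapped here too, and a difference was not tested. The summits were 76 bp downstream (replicate 1) and 90 bp upstream (replicate 2) of the start site.

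MAP2K2, which encodes the paralog MEK2, had its promoter peak in replicate 2 alone (5.63-fold, chromosome 2, 74626495 to 74626920), with 17 fragments (9.9 to 27.2) and its summit 106 bp upstream. No replicate 1 peak overlapped it. Of 728 genes whose replicate 2 promoter peak had 16 to 18 fragments, 88.5% also had a promoter peak in replicate 1. MAP2K2 therefore belonged to the smaller share that did not recur at this height.

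BRAF and MAPK3 (ERK1) had no assigned peak. A replicate 1 peak within the MAPK3 gene (chromosome 3, 18292514 to 18292971; 4.06-fold, 15 fragments) was assigned by the authors to the promoter of GDPD3, which ends 137 bp from MAPK3. It lay 1070 bp inside the nearer end of MAPK3 and had no count in the tally above.

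FRS2, which links activated FGF receptors to GRB2, was the bound adaptor. Its peak was the weakest of the 3, with 4.24-fold enrichment in replicate 1 (chromosome 5, 33725142 to 33725745) and 5.44-fold in replicate 2 (33725422 to 33725854). Each rested on 12 summit fragments (6.2 to 21.0). The summits stood on opposite sides of the TSS, 219 bp upstream of it (replicate 1) and 72 bp downstream (replicate 2), although the peaks overlapped. Among genes with 11 to 13 fragments in replicate 1, 33.5% had a promoter peak in both libraries, and among genes with 11 to 13 fragments in replicate 2, 72.0% did. FRS2 was no longer counted with peaks of at least 5-fold, which left 2 of 28 genes (7.14%, against 11.5% of all genes). It was also lost with the 7301 strongest peaks of each list (7.14%, against 19.2%). At a −log10 q-value of at least 2 the 3 bound genes remained (20.4% of all genes), as they did within 1 kb of the TSS (20.5%) and where the peaks of the 2 libraries had to overlap by 1 bp (20.6%) or by 50% of both (17.6%).

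GAB1, a docking protein that recruits PI3K, had a 5′ UTR peak in replicate 1 whose nearest edge began 123 bp downstream of the TSS (5.08-fold, 13 fragments). It therefore fell just outside the promoter class, and with 5′ UTR peaks added the count stayed at 3 of 28 (10.7%, against 24.0% of all genes). Its replicate 2 peak was at another site, in an intron 36.1 kb into the gene (5.39-fold, 11 fragments), so GAB1 had peaks in both libraries but at no common site. Any assigned peak in both libraries was found at 6 of 28 genes (21.4%, against 28.2% of all genes). SOS1, the exchange factor that activates RAS, had a replicate 1 peak with its nearest edge 3044 bp upstream (5.23-fold, 21 fragments), just beyond the promoter class. GRB2, the adaptor that brings SOS1 to receptors, had a distal peak in replicate 2 only, 11.2 kb upstream (6.4-fold, 15 fragments).

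SHC1, a phosphotyrosine adaptor, had no assigned peak, yet peaks of both neighbours recurred beside it. The promoter peak of CKS1B lay inside the SHC1 gene (6.31-fold in replicate 1 and 4.33-fold in replicate 2). That of PYGO2 lay 397 and 426 bp from its upper end (6.04-fold and 5.55-fold). Each peak was assigned to 1 gene only. By position alone, within 1 kb of the gene start, SHC1 would join the bound genes as the fourth (14.3%, against 28.5% of all genes). In replicate 1 this rested on the PYGO2 end alone, since the CKS1B peak lay 1084 bp from the other end (901 bp in replicate 2). The lists give no strand for SHC1 or any other gene without an assigned peak, so either end was allowed as the start of all these genes, which can raise the share of all genes too.

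**Figure D2:**
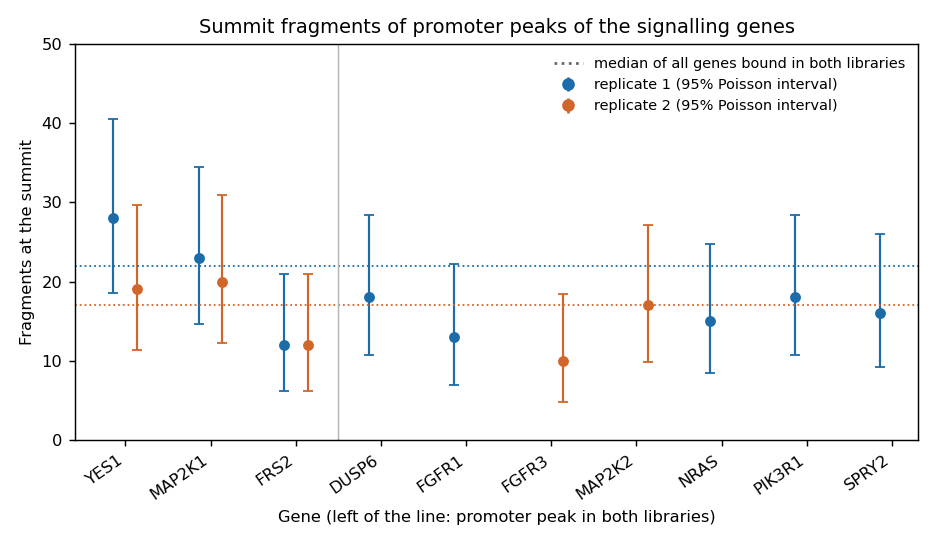
Fragments at the summit (vertical axis) of every promoter peak of the 28 genes, with exact 95% Poisson intervals that cover counting error only. Blue is replicate 1 and orange replicate 2, dotted lines mark the medians of all 3439 bound genes (22 and 17), and the vertical line parts the 3 bound genes from the 7 with a promoter peak in 1 library, which lie at 10 to 18 fragments.

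The RAS GTPases of the list gave 1 peak in all. NRAS had its promoter peak in replicate 1 alone (5.31-fold, chromosome 4, 105845615 to 105846250), from 15 fragments (8.4 to 24.7) and with its summit 129 bp downstream of the TSS. Of genes with 14 to 16 fragments in replicate 1, 48.7% had a promoter peak in both libraries, so its absence from replicate 2 was the outcome of about as many genes as not. HRAS (chromosome 2, 299662 to 302539) had no assigned peak and none of another gene within 3 kb.

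In the PI3K and AKT arm, PIK3R1, the p85-alpha regulatory subunit, had a replicate 1 promoter peak. It had 5.89-fold enrichment (chromosome 16, 46434336 to 46435038) from 18 fragments (10.7 to 28.4), spanned the TSS and was above the median promoter fold of the library. No replicate 2 peak overlapped it, whereas 62.2% of genes with 17 to 19 fragments in replicate 1 had a promoter peak in both. PIK3CA, the p110-alpha catalytic subunit, and the kinases AKT1 and AKT2 had no assigned peak. AKT1 lies on an unplaced scaffold in the gene table, so peaks of other genes near it were not looked for.

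The 6 receptors had no bound promoter, and their recurring peaks lay inside genes. RET, the signalling receptor for GDNF, had a peak about 30 kb into the gene in both libraries. It had 6.37-fold enrichment and 20 fragments (12.2 to 30.9) in replicate 1 (chromosome 14, 61336124 to 61336797, intron) and 5.6-fold and 13 fragments (6.92 to 22.2) in replicate 2 (61335889 to 61336441, exon). These peaks overlapped and were the strongest of any receptor in each library. A distal RET peak 15.1 kb upstream was found in replicate 1 only (4.42-fold, 10 fragments).

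NCAM1, an alternative GDNF receptor, likewise had overlapping intronic peaks near its start. The replicate 1 peak began 1709 bp from the TSS (4.72-fold, chromosome 9, 40630337 to 40631073, 16 fragments) and the replicate 2 peak 1878 bp from it (3.6-fold, 40630506 to 40630779, 10 fragments). A pair of distal NCAM1 peaks, 106628 and 176326 bp upstream, was in replicate 1 only, with 9 and 12 fragments. RET and NCAM1 were the only genes of the 28 with overlapping peaks away from the promoter. With peaks of any class counted in this way, 5 of 28 genes had a common site (17.9%, against 26.7% of all genes).

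GFRA1, the GDNF co-receptor and a marker of undifferentiated spermatogonia, had a peak in replicate 2 alone. It lay in an intron 560 bp from the TSS of the named transcript (chromosome 14, 126498327 to 126498627; 4.07-fold) and rested on 11 fragments (5.49 to 19.7). At this depth the data did not show whether replicate 1 lacked signal there.

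Of the FGF receptors, FGFR1 had its promoter peak in replicate 1 alone (4.39-fold, chromosome 15, 48053437 to 48053737, 13 fragments, 158 bp upstream at its nearest edge). FGFR3 had its promoter peak in replicate 2 only (3.56-fold, chromosome 8, 878642 to 879037, 10 fragments, 114 bp upstream). Neither reached the TSS and both were below the median promoter fold. FGFR2 had a distal peak 11.5 kb upstream in replicate 2, at 3.54-fold and 6 fragments (2.2 to 13.1), equal to the lowest summit count of that list.

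**Figure D3:**
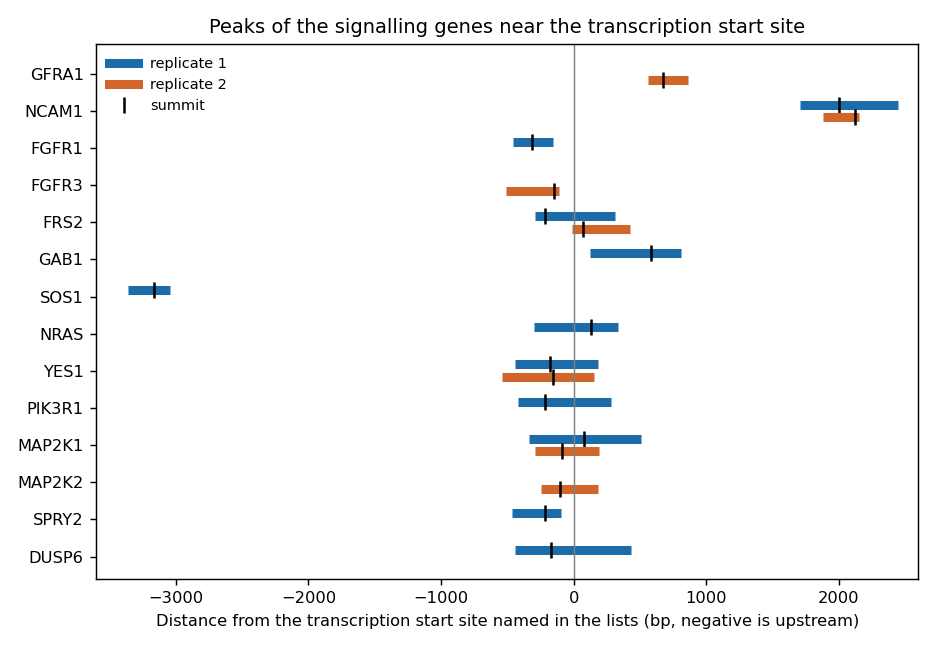
Peaks of the signalling genes with an edge near the TSS, drawn to scale in bp from it (negative is upstream), with replicate 1 in blue, replicate 2 in orange and a black tick at the summit. Peaks of YES1, MAP2K1 and FRS2 from both libraries overlap at the TSS, those of NCAM1 overlap about 2 kb downstream (summits at 1999 and 2118 bp), and the other genes have a peak from 1 library.

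Both feedback inhibitors with a peak had it in replicate 1 alone. SPRY2, a Sprouty protein induced by and acting against receptor tyrosine kinase signals, had a peak 93 bp upstream (4.07-fold, chromosome 11, 52158859 to 52159233, 16 fragments). DUSP6, the phosphatase that inactivates ERK, had a broader peak of 870 bp across the TSS (4.06-fold, chromosome 5, 93302618 to 93303487, 18 fragments). Like peaks recurred at 53.7% of genes with 15 to 17 fragments and at 62.2% of those with 17 to 19. Their folds were the lowest of the replicate 1 promoter peaks of the 28 genes, while the local background at DUSP6 (3.68 fragments) was the highest among them. SPRY4 had no assigned peak.

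Of the 8 genes with a replicate 1 promoter peak, 3 had another in replicate 2 (37.5%, against 63.5% of all genes with a replicate 1 promoter peak). Of the 5 with a replicate 2 promoter peak, 3 had another in replicate 1 (60.0%, against 83.6%). Their promoter peaks had 12 to 28 fragments in replicate 1 and 10 to 20 in replicate 2, against medians of 19 and 16 over all promoter peaks. Recurrence rose with summit fragments over all genes, and its part in these shares was not tested.

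The 28 genes received 16 peaks in replicate 1, 8 of them at promoters (50.0%), and 12 in replicate 2, 5 of them at promoters (41.7%). The 8 genes with peaks only away from the promoter had a median length of 122 kb, against 30.4 kb over all such genes, and the 3 bound genes one of 94.8 kb, against 29.9 kb. Those with a promoter peak in 1 library had a median of 15.8 kb (29.9 kb over all such genes) and those with no peak 37.5 kb (20.8 kb).

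Beyond the 28, 88 further genes of the pathway were examined by the same rule, and 25 were bound (28.4%). With the 28 included, 28 of 116 genes were bound (24.1%, against 20.8% of all genes). The margin of the further genes over all genes depended on the call: with peaks of at least 5-fold 9 of 88 were bound (10.2%, against 11.5% of all genes), and with any peak within 1 kb of the gene start 25 of 88 (28.4%, against 28.5%). By role the bound genes were 1 of 15 ligands, 1 of 7 other receptors, 4 of 15 other adaptors and scaffolds, and 0 of 9 other GTPases, exchange factors and GTPase-activating proteins. They were 5 of 13 other kinases, 6 of 16 other inhibitors and 8 of 13 nuclear factors at the end of the pathway. With peaks of at least 5-fold these became 2 of 13 kinases, 2 of 16 inhibitors (CBL and CBLB) and 2 of 13 nuclear factors (ETV5 and ELK1). Some of these genes were already known to have peaks when the list was made, so its counts are no independent evidence.

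**Figure D4:**
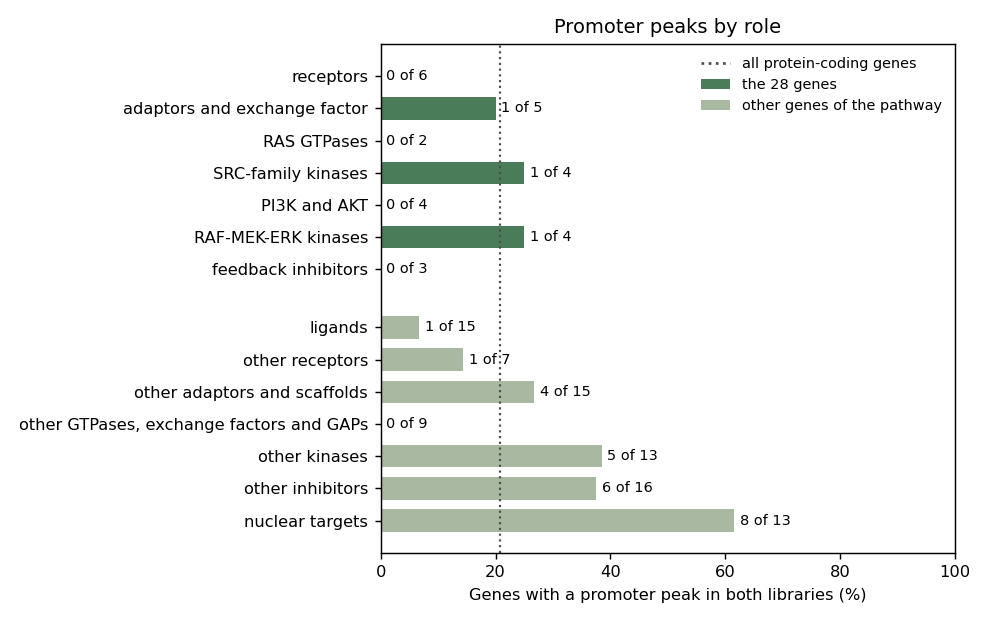
Percent of genes with a promoter peak in both libraries (horizontal axis) by role, with the count beside each bar. Dark bars are the 28 genes, pale bars the further pathway genes, and the dotted line is the share of all protein-coding genes (20.8%). Bars above the line are SRC-family kinases, RAF-MEK-ERK kinases, other adaptors and scaffolds, other kinases, other inhibitors and nuclear factors. All other bars lie below it. The nuclear factors reach 8 of 13, of which 2 have peaks of at least 5-fold in both libraries.

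Several paralogs of members were bound where the member was not. SOS2 had 6.91-fold and 5.9-fold promoter peaks in replicate 1 and replicate 2, while SOS1 had none. ARAF, a paralog of BRAF, had 7.97-fold and 5.93-fold peaks, while BRAF had none. PIK3R2, a regulatory subunit like PIK3R1, had 6.71-fold and 6.45-fold peaks from 42 and 30 fragments. FGFR4 was the bound FGF receptor (5.6-fold and 4.58-fold), and PIK3CD the bound catalytic subunit (3.7-fold and 3.61-fold). Neither was counted with peaks of at least 5-fold. The PIK3CD peaks rested on 12 and 10 fragments, at a transcript start inside the gene. PIK3CD was also lost at a −log10 q-value of at least 2 and with lists of equal length.

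Among inhibitors, the ubiquitin ligases CBLB (9.58-fold and 9.59-fold, 54 and 38 fragments) and CBL (7.29-fold and 8.17-fold, 28 in each), which mark activated receptors for degradation, had higher folds in each library than YES1, MAP2K1 and FRS2. DUSP1 (4.57-fold and 4.63-fold), SPRED1 (4.23-fold and 3.7-fold), IL17RD (4.16-fold and 4.39-fold) and PEBP1 (5.58-fold and 3.77-fold) were also bound. No Sprouty gene was: of 4, SPRY2 had the peak described above and SPRY1 and SPRY3 had none assigned. DUSP4 had a promoter peak in replicate 1 only.

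The bound adaptors and scaffolds were SOS2, PTPN11, the SHP2 phosphatase that binds FRS2 and GAB1 (7.61-fold and 6.34-fold), KSR1, a scaffold of RAF and MEK, and CRKL (4.04-fold and 4.37-fold). At KSR1 the libraries shared a promoter peak of 6.54-fold in replicate 1 and 4.38-fold in replicate 2, and replicate 2 had a stronger one (5.08-fold) at the start of another transcript, with no overlapping peak in replicate 1. FRS3, the paralog of FRS2, as well as CRK and KSR2 had a promoter peak in replicate 1 only. The ERK-activated kinases RPS6KA1 (4.78-fold and 4.8-fold) and MKNK1 (4.56-fold and 6.51-fold) completed the bound kinases. Among GTPases and their regulators, RASA1 and RASA3 had a promoter peak in replicate 1 only, and MRAS and RASGRP1 in replicate 2 only. The RASGRP1 promoter peak (5.51-fold, 13 fragments) overlapped a replicate 1 peak of the 5′ UTR class (4.98-fold, 14 fragments). The nearest edge of that replicate 1 peak was 35 bp downstream of the TSS of the transcript named for it. RASGRP1 thus had a common site in both libraries, and it was counted as bound with 5′ UTR peaks added.

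Of the further genes, 1 of 15 ligands (6.67%) and 1 of 7 receptors (14.3%) were bound, against 20.8% of all genes. GDNF, NRTN, PSPN, FGF1, FGF2, FGF4, FGF5, FGF7, FGF8, FGF9, FGF10 and FGF16 had no assigned peak. ARTN and FGF20 had a peak away from the promoter in replicate 1. FGF18 had a peak about 500 bp upstream in both libraries (463 bp at its nearest edge in replicate 2; 3.76-fold and 5.23-fold, 12 and 14 fragments). The co-receptor gene GFRA2 had a promoter peak in replicate 1 only, GFRA4 had exonic peaks in both, and GFRA3, FGFRL1, KL and KLB had none.

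The bound nuclear factors were the ETS genes ETV5, ETV4 (5.72-fold and 3.52-fold), ETV1 (4.88-fold and 4.24-fold) and ELK1 (9.4-fold and 9.12-fold), the early response genes FOS (3.82-fold in both), EGR1 (4.2-fold and 4.21-fold) and EGR2, and ID4 (3.68-fold and 3.89-fold). The ETV1 peaks lay 1091 and 1190 bp upstream of the start of the named transcript, a start inside the gene. ETV1 was therefore not counted with promoter peaks within 1 kb of the TSS. ELK4 had a promoter peak in replicate 1 only. ETV5 had 43 and 35 summit fragments, more than any of the 28 genes. Over the 25 bound further genes the folds ran from 3.68 to 9.58 in replicate 1 and from 3.52 to 9.59 in replicate 2, a range that held the values of all 3 bound members.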

How the data were processed

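Each CUT&Tag library had its own deposited peak list, with positions, annotation and distance to the TSS as the authors gave them. Positions are on Sscrofa11.1, as named in the submitters' processing notes. For the aligner, peak caller, control and annotation software, names were not given in the sources used here. Per peak, the deposited fold (a linear ratio), −log10 p-value and −log10 q-value were read as named, per the file headers. The deposited score was not used. No read totals were used. Summit fragments were solved from the fold, taken as (fragments + 1)/(background + 1), and the p-value, taken as a Poisson tail above that count, and 100% of peaks in both lists gave a whole number within a relative tolerance of 1e-05. On 500 simulated peaks with whole counts 100% were recovered, and 0 of 500 made from fractional counts passed. The lowest background was 1.21 and 0.979 fragments, and the lowest −log10 q-value 1.31 in both lists. Intervals are exact Poisson at 95% and cover counting error only.

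Peaks were matched to genes by the authors' gene names, and a gene was bound when it had a promoter peak in both lists. The background was 16509 protein-coding symbols other than LOC numbers in the RefSeq gene table (Sscrofa11.1). The strongest promoter peak per gene and library was used. Like-height shares are over genes within 1 fragment. All 28 members are named, as are further pathway genes that were bound, had a promoter peak in 1 library or encode ligands or receptors; other unbound genes are named as paralogs of members. Of 89 further genes listed, 1 had no entry in the table; some other genes of the pathway are not reported here. Members and lists were chosen with earlier results of these data known. Promoter sequences were not analysed here. Scripts ran in Python 3.11.15 with scipy 1.17.1, numpy 2.4.6, pandas 2.3.3 and, for figures, matplotlib 3.10.9.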

Additional observations from a re-analysis of the deposited data

How the results depend on the processing

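The count of 3 bound members was 2 with peaks of at least 5-fold and with lists of equal length (7301 peaks each), without FRS2 in both cases. It was 4 with any peak within 1 kb of the gene start, and 3 with the −log10 q-value, promoter width, 5′ UTR and overlap alternatives. With any assigned peak in both libraries it was 6 (21.4%, against 28.2% of all genes), through RET, NCAM1 and GAB1. Overlapping peaks of any class, an alternative chosen after seeing the data, gave 5. With 1 library left out it was 5 (without replicate 1) to 8 (without replicate 2), against 24.9% and 32.8% of all genes. The number of the 7 roles with a bound member was 3, and 2 with peaks of at least 5-fold and with lists of equal length. It was 4 with any assigned peak in both libraries and with overlapping peaks of any class. With 1 library left out it was 4 to 7. Without replicate 2 every role had a promoter peak at a member, though the share of members (28.6%) was below that of all genes (32.8%). The 25 bound further pathway genes became 9 with peaks of at least 5-fold (10.2%, against 11.5% of all genes) and 27 to 33 with 1 library left out. The 26 peak values of members (13 folds and 13 summit positions) were the same with the promoter peak nearest to the TSS, since no member had more than 1 per library. The planned summit-window sequence features were not run. No paired analysis was possible because the libraries form 1 group. The median peak rested on 16 and 14 summit fragments, so a missing peak means only that none was detected.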

Other observations

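Some further pathway genes had peaks away from the promoter that overlapped between the libraries. The highest replicate 1 fold among them was at a site 18.6 and 18.7 kb upstream of FOS, with 7.42-fold enrichment in replicate 1 and 6.07-fold in replicate 2, above the 3.82-fold of the FOS promoter peak in both. DUSP4, which encodes a nuclear ERK phosphatase, had overlapping distal peaks 18222 bp upstream in both libraries (5.19-fold and 5.29-fold). RPS6KA1 had a pair of overlapping distal sites, of which the one 62881 bp from the TSS of the named transcript had 5.61-fold and 6.64-fold enrichment. DUSP7 had overlapping 5′ UTR peaks (4.16-fold and 4.43-fold). PDPK1, the kinase that activates AKT, had overlapping peaks 7268 and 7184 bp upstream of its TSS (4.59-fold and 3.76-fold). The authors' class for these 2 peaks was downstream, although by position they were upstream of PDPK1. These genes were picked after their values were seen and are given as values only.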
